A study of Mus musculus with 2 samples.

Results

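The 10 genes described here code for proteins that build, space and crosslink the extracellular matrix of liver: the small leucine-rich proteoglycans Dcn (decorin), Bgn (biglycan), Lum (lumican) and Fmod (fibromodulin), the elastic fibre components Fbn1 (fibrillin 1) and Eln (elastin), the crosslinking enzymes Lox, Loxl1 and Loxl2, and Fn1 (fibronectin). They were taken by symbol from a deposited table of 36771 rows, in which each symbol had 1 row. The table held 1 library labelled WT (genotype WT) and 1 labelled SRSF2-KO (genotype SRSF2-/-), prepared from livers of BALB/c animals aged 5 months, and the design text describes the deletion of Srsf2 as liver-specific. The sources used here do not say what drove that deletion or whether a library pooled several animals. With 1 library per genotype there was no replicate, no difference was tested, and the intervals below cover counting error only. Srsf2, the targeted splicing factor, stood at 45.3 FPKM in the KO-labelled library and 38.2 FPKM in the WT-labelled library (FPKM are fragments per kilobase of transcript and per library size). The value therefore does not bear out the label, although 1 value per gene cannot show whether part of the gene was lost. Each direction below is one between libraries as labelled, called KO and WT here. Estimated depths were 24000000 and 19100000 fragments, respectively.

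Small leucine-rich proteoglycans are secreted core proteins that bind collagen fibrils and limit or guide their lateral growth. Fibrillin microfibrils form the scaffold on which elastin is laid down, and enzymes of the lysyl oxidase family oxidise lysines of elastin and collagen so that the chains become covalently joined. Fibronectin is an adhesive glycoprotein with a soluble plasma form, secreted by hepatocytes, and a cellular form that stromal cells assemble into fibrils. In liver, the fibril-associated members are mainly products of hepatic stellate cells and portal fibroblasts.

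Of the 10 members, 9 lay higher in the KO-labelled library and Fn1 lay lower. The share of all rows that lay higher there was not computed. The spread among the 9 was wide, from 1.55-fold for Dcn to 12.7-fold for Loxl1. Of the 10 members, 6 reached 1 FPKM in at least 1 library and 4 reached it in both. Loxl1 and Loxl2 reached it only in the KO-labelled library, and Fmod, Fbn1, Eln and Lox stayed under 1 FPKM in both.

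**Figure D1:**
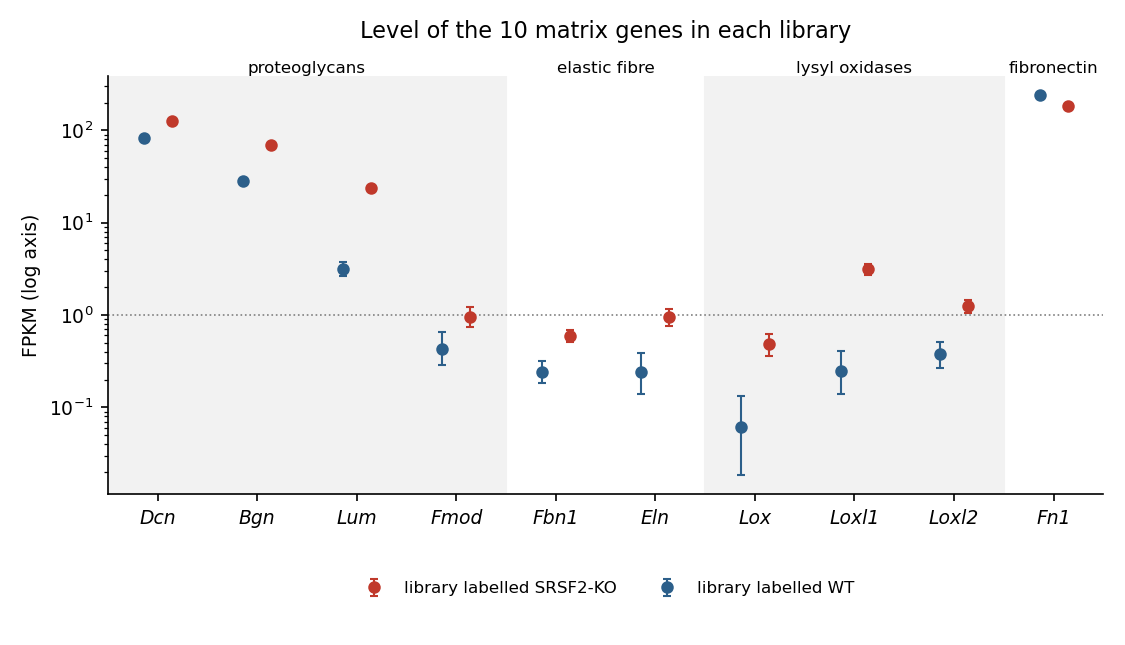
FPKM of the 10 matrix genes (log axis) in the KO-labelled library (red) and the WT-labelled library (blue), with bars for the 95% exact Poisson interval of the estimated reads; the dotted line marks 1 FPKM. The red point is the upper one for 9 genes and the lower one for Fn1 (184 against 241 FPKM), and the WT level of Lox (0.0616 FPKM) is the lowest shown.

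Dcn was the most abundant of the 4 small leucine-rich members. Decorin binds collagen fibrils and sequesters growth factors, among them TGF beta. It reached 128 FPKM in the KO-labelled library against 82.7 FPKM in the other. The ratio was 1.55, with an exact 95% interval (Clopper-Pearson) of 1.47 to 1.62. This was the smallest ratio among the 9 genes that lay higher.

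Bgn, which codes for the closest relative of decorin in this group and whose soluble form is recognised by the receptors TLR2 and TLR4, stood at 70.3 against 28.5 FPKM. The ratio was 2.47 (interval 2.31 to 2.63). Lum codes for lumican, a keratan sulfate proteoglycan of collagen fibrils. It stood at 23.8 against 3.15 FPKM, 7.55-fold higher in the KO-labelled library (6.33 to 9.05). Fmod, whose product binds collagen near the crosslinking sites, was scarce in both, at 0.952 against 0.432 FPKM, which corresponded to an estimated 68 and 25 reads. Its ratio was 2.20 with a wide interval of 1.35 to 3.57.

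The make-up of the proteoglycan group therefore differed between the libraries. Their summed level was 223 FPKM in the KO-labelled library and 115 FPKM in the WT-labelled library. Dcn made up 57.4% of it in the former and 72.04% in the latter, and Lum 10.7% and 2.74%. Per 100 FPKM of Dcn there were 18.6 FPKM of Lum in the KO-labelled library and 3.81 in the WT-labelled library, a difference of 4.89-fold. Such a ratio within 1 library does not depend on how that library was scaled. Bgn per 100 FPKM of Dcn was 55.0 against 34.5, a smaller difference of 1.60-fold.

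Of the 4 proteoglycan members, Dcn, Lum and Fmod adjoin relatives in the RefSeq annotation (GRCm38.p6, used for gene order only), whereas Bgn lies between the unrelated Haus7 and Atp2b3 on chromosome X. On chromosome 10, Dcn and Lum adjoin Kera and Epyc, the genes of the cornea and cartilage proteoglycans keratocan and epiphycan, both of which were listed at 0 in both libraries. On chromosome 1, Fmod adjoins Prelp, another collagen-binding member, which in turn adjoins Optc. Prelp stood at 19.3 against 13.4 FPKM, a ratio of 1.44 (interval 1.32 to 1.56) beside the 2.20 of Fmod, and the 2 intervals overlapped. Optc was at 0.121 FPKM in the KO-labelled library and listed at 0 in the other.

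Only 3 members, Bgn, Fmod and Fbn1, had an entry in the RefSeq promoter table (GRCm38.p6), and the 250 bases before each start are shown for that reason. Their ratios ran from 2.20 to 2.47, but the intervals of Fmod (1.35 to 3.57) and Fbn1 (1.79 to 3.38) were too wide to call them alike. Their levels differed: Bgn stood 73.8-fold above Fmod in the KO-labelled library and 66.0-fold above it in the WT-labelled library. Capitals mark the GC box GGGCGG, the core of the site of SP1-type factors, on either strand. The 3 windows are chrX:73483351-73483600 (plus strand), chr1:134037004-134037253 (plus strand) and chr2:125506439-125506688 (minus strand).
Bgn: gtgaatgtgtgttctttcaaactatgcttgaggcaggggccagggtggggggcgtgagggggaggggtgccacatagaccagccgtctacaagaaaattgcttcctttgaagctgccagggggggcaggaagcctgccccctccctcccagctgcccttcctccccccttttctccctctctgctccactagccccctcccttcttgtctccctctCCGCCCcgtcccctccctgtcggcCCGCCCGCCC
Fmod: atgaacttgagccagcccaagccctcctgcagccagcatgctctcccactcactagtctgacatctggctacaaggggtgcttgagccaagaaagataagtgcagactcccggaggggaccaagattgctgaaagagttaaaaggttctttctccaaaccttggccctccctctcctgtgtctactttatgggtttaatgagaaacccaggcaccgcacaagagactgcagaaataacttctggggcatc
Fbn1: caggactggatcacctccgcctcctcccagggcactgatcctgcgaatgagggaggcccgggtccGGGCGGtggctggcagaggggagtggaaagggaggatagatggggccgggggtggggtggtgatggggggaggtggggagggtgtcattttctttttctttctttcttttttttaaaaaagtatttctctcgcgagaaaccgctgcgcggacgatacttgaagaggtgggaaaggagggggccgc
The Bgn window held 3 GC boxes, all on the minus strand and the last 2 overlapping within the 10 bases before the start, the Fbn1 window held 1, and the Fmod window held 0. The motif occurs in 32.7% of all 32851 windows of this length in the table. Their GC content was 64.4% for Bgn, 59.2% for Fbn1 and 51.2% for Fmod, beside a median of 52.4% over all windows. The TATA box TATAAA (12.4% of all windows), the AP-1 motif TGANTCA (6.75%), the SMAD palindrome GTCTAGAC (0.167%) and the TEAD motif GGAATG (12.6%), each searched on both strands, were in none of the 3 windows.

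Both elastic fibre genes were expressed at low levels. Fbn1, whose product polymerises into microfibrils that also hold latent TGF beta, stood at 0.596 against 0.244 FPKM, or an estimated 169 and 55 reads on its long transcript. The ratio was 2.45 (interval 1.79 to 3.38). Eln, the gene of the soluble precursor of elastin, stood at 0.946 against 0.243 FPKM, from 84 and 17 reads, a ratio of 3.90 (2.32 to 7.07). In the WT-labelled library the levels of Eln and Fbn1 could not be separated, and in the KO-labelled library Eln lay above Fbn1 with intervals of the level that did not overlap (0.752 to 1.17 and 0.509 to 0.692 FPKM).

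Of 15 other genes of microfibrils and elastic fibre assembly, 14 were higher in the KO-labelled library. No such share was computed over all rows. Rows above 0 in both libraries with a mean of 0.2 to 2 FPKM leaned that way too, with a median log2 of the plain ratio of 0.28. Of the 15 genes, 9 reached 1 FPKM in at least 1 library, 5 of them only in the KO-labelled library. Of these 9, 3 reached 1 on the log2((SRSF2-KO + 1)/(WT + 1)) scale of FPKM, called the log2 ratio from here on, where 1 stands for 2-fold, and 0 lay below -1. Among all rows that reached 1 FPKM in either library, 5.49% reached 1 and 3.22% reached -1. The median log2 ratio of the 9 genes was 0.73, a value raised by the 5 that passed only where they were high. Over the 14 genes above 0 in at least 1 library it was 0.43, beside 0.02 over all such rows. The highest were Ltbp2, a microfibril-associated protein gene (1.70 against 0.104 FPKM), and Efemp1, which codes for fibulin 3 (8.998 against 3.43 FPKM). The lowest log2 ratios were those of Ltbp4, whose product helps to deposit elastin (0.36), and Fbln5, which codes for a fibulin that tethers LOXL1 and elastin (0.39).

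Among the crosslinking enzymes Loxl1 had the largest ratio of all 10 members. LOXL1 is needed for elastic fibre renewal in adult mice. The gene stood at 3.13 against 0.246 FPKM, 12.7-fold higher in the KO-labelled library (interval 7.47 to 22.8, from an estimated 237 and 15 reads). Lox, the founding member that acts on fibrillar collagen and elastin, stood at 0.484 against 0.0616 FPKM. With an estimated 5 reads in the WT-labelled library its ratio of 7.86 had an interval of 3.40 to 27.0. Loxl2, which codes for an enzyme with scavenger receptor domains that also acts on basement membrane collagen, stood at 1.24 against 0.375 FPKM, a ratio of 3.30 (2.30 to 4.88).

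The balance among these enzymes differed. Loxl1 was at 0.655 of the Loxl2 level in the WT-labelled library and at 2.53 of it in the KO-labelled library. The other 2 genes of the family, named after their values were seen, went in opposite directions. Loxl4 stood at 0.364 against 0.0992 FPKM (ratio 3.67, interval 1.52 to 9.48) and Loxl3 at 0.466 against 0.897 FPKM (ratio 0.519, interval 0.344 to 0.763). The interval of Loxl3 does not overlap that of any of the other 4 genes of the family.

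The wider list of crosslinking and propeptide processing genes was mixed. Of 14 genes 9 were measured at 1 FPKM or more, 5 with log2 ratios above 0 and 4 below, with a median of 0.09. The log2 ratio reached 1 in 3 of them and -1 in 0, against 5.49% and 3.22% of all rows that reached 1 FPKM. Tgm2, a transglutaminase that joins glutamine and lysine side chains of matrix proteins, was highest at 49.9 against 19.5 FPKM, followed by Pcolce, an enhancer of procollagen cleavage, at 8.27 against 3.20 FPKM. Plod1, a collagen lysyl hydroxylase (13.5 against 17.9 FPKM), and Pcolce2 (0.761 against 1.12 FPKM) were lowest. With KO rescaled so that the median ratio was 1, with sums made equal after leaving out the 50 most abundant rows and with rescaling to TPM, 7 of these 9 lay above 0.

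**Figure D2:**
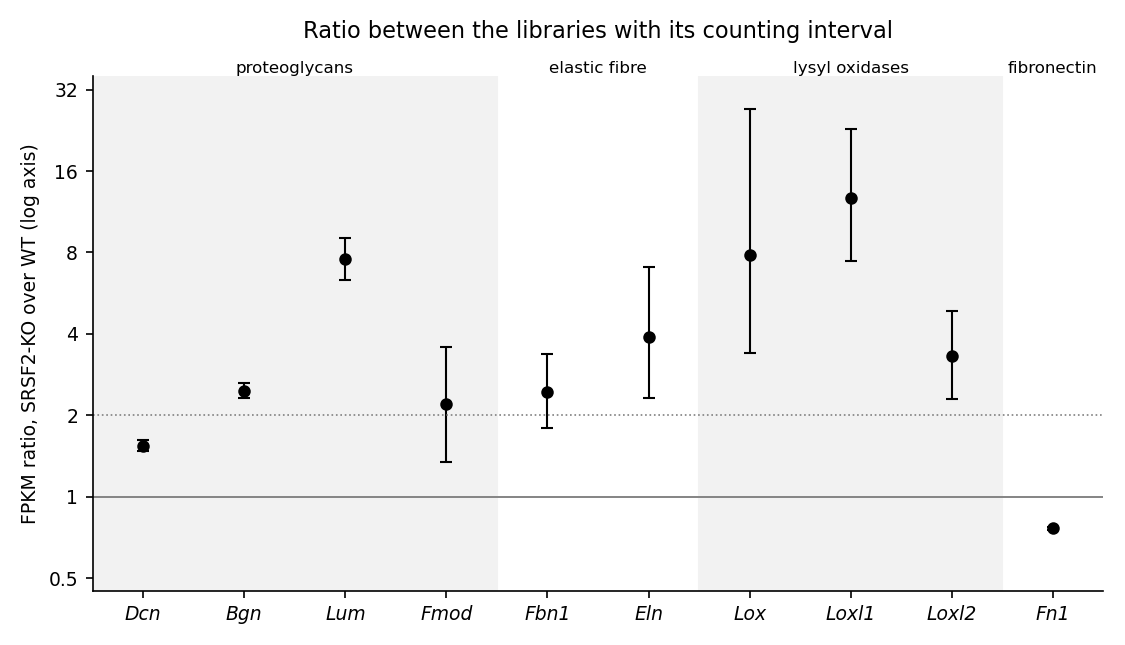
Ratio of FPKM in the KO-labelled library to that in the WT-labelled library for each of the 10 genes (log axis), with bars for the 95% exact (Clopper-Pearson) interval, which covers counting error only; the solid line marks a ratio of 1 and the dotted line a ratio of 2. The interval lies above 1 for 9 genes, above 2 for 6 of them, and below 1 for Fn1. The share of all rows with such intervals was not computed, so these counts have no background.

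Fn1 was the most abundant member in both libraries and the only one of the 10 that lay lower in the KO-labelled library. Its level was 184 FPKM there, against 241 FPKM in the WT-labelled library, a ratio of 0.765 (interval 0.754 to 0.776). Its log2 ratio of -0.39 shrank to -0.23, -0.10 and -0.04 under those 3 rescalings. The median over all measured rows rose alongside, from -0.04 to 0.09, 0.21 and 0.28, and Fn1 stayed below it each time. The table gives 1 value for Fn1 and does not separate transcripts of the plasma form from those of the cellular form. Its proportion to the 4 measured hepatocyte markers, a comparison chosen after values were seen, depended on the marker. Per 100 FPKM of Apoa1, Fn1 was at 2.21 FPKM in the KO-labelled library and 2.20 in the WT-labelled library, per 100 FPKM of Hnf4a at 184 and 181, and per 100 FPKM of Cps1 at 32.9 and 30.4. Per 100 FPKM of Cyp2e1, the marker with the lowest log2 ratio, it was at 9.26 and 4.58. Vtn, the gene of the other abundant adhesive plasma protein vitronectin, stood at 1171 against 1163 FPKM.

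Genes of fibronectin-binding integrins went both ways. Of 9 genes 5 were measured, 3 with log2 ratios above 0, and the median was 0.70. Over the 8 above 0 FPKM in at least 1 library it was 0.23. The log2 ratio reached 1 in 1 gene and -1 in 1, beside 5.49% and 3.22% of all measured rows. Itga8, an integrin subunit gene of stellate cells and other mesenchymal cells, was highest at 3.95 against 0.953 FPKM, followed by Itgav (7.02 against 3.76 FPKM). Itga8 reached 1 FPKM only in the KO-labelled library. Itga9 was lowest at 2.28 against 5.79 FPKM, 1 of its list at least 2-fold lower, although under the 3 rescalings 0 were. Itgb1, which codes for the shared beta chain, stood at 43.9 against 44.1 FPKM. Itga5, whose product pairs with it in the classic fibronectin receptor, was at 4.75 against 2.54 FPKM.

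The counts depend on how low values are treated, so they are given on both scales over all 10 members. By log2 ratio, 3 of 10 (Lum, Loxl1 and Bgn, at 2.58, 1.73 and 1.27) were higher by 2-fold or more and 0 lower by as much. The background was 3.4% higher and 2% lower among the 18435 rows above 0 in at least 1 library, and 5.49% and 3.22% among the 11428 rows that reached 1 FPKM in either library. The pseudocount of 1 hides most of a ratio when both levels are under 1 FPKM. Without it, an alternative chosen after seeing the data, 8 of 10 members were higher by 2-fold or more and 0 lower by as much, against 14.5% and 7.34% of the 15848 rows above 0 in both libraries. Among the 4440 of these rows with a mean of 0.2 to 2 FPKM, the range that holds Fmod, Fbn1, Eln and the crosslinking enzymes, 24.2% were higher by 2-fold or more and 9.03% lower. The median log2 ratio of the 10 members was 0.63 with the pseudocount (0.02 over rows above 0 in at least 1 library) and 1.51 without it (-0.01 over rows above 0 in both, and 0.28 in that range).

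**Figure D3:**
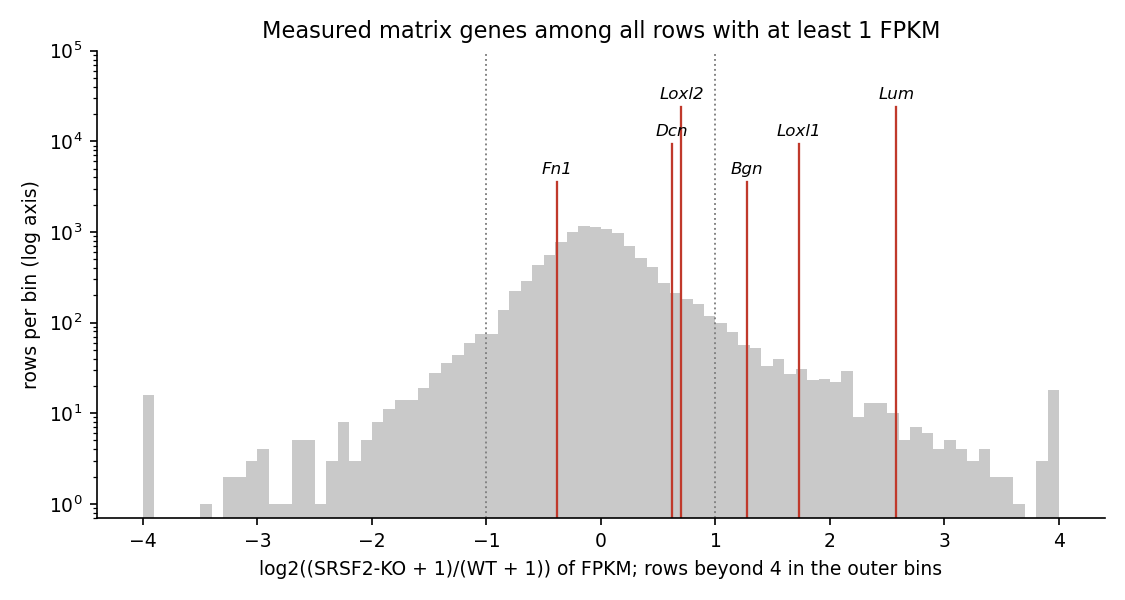
Number of rows (log axis) by log2 ratio among the 11428 rows that reached 1 FPKM in either library (grey), with red lines at the 6 members that reach 1 FPKM; dotted lines mark a 2-fold difference. Lum ranks 70 from the top, Bgn 411 and Dcn 1253, and Fn1 lies left of the centre.

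The scaling of the libraries changed the size of the log2 ratios. The deposited FPKM summed to 523254 in the KO-labelled library and 666262 in the WT-labelled library, and the 3 rescalings shifted KO upward relative to WT by 0.15, 0.29 and 0.35 on the log2 scale. They moved the median log2 ratio over all measured rows from -0.04 to 0.09, 0.21 and 0.28. With TPM, 10.8% of rows were higher by 2-fold or more and 1.91% lower, beside 5.49% and 3.22% as deposited. Since each of the 3 raised KO, the 9 members that lay higher could not turn. Only Fn1 could have turned, and it stayed below 0 under each.

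**Figure D4:**
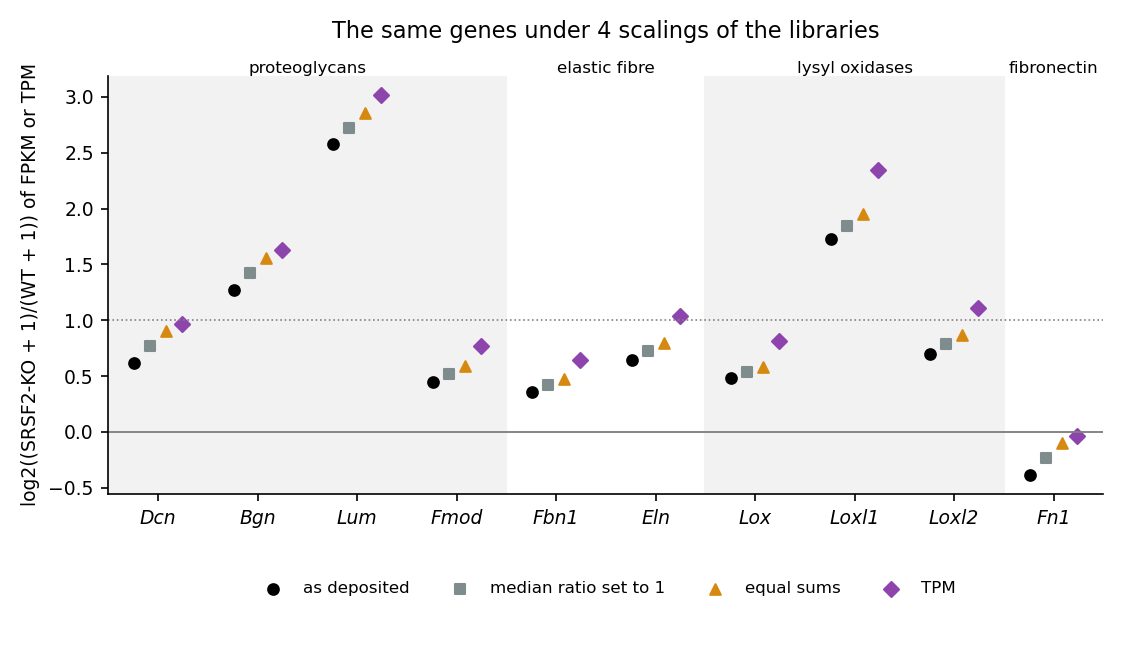
Log2 ratio of each of the 10 genes with the FPKM as deposited (circles), with the KO library rescaled to a median ratio of 1 (squares), with equal sums once the 50 most abundant rows were left out (triangles) and with TPM (diamonds). Lum moves from 2.58 to 3.02, Eln from 0.65 to 1.04 and Loxl2 from 0.70 to 1.11, past the dotted line at 1, and Fn1 from -0.39 to -0.04.

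The order of the levels within a library was the same at the top in both: Fn1, Dcn, Bgn and Lum, each apart from the next by more than its counting interval. Below them it differed. In the WT-labelled library, Fmod, Loxl2, Loxl1, Fbn1 and Eln followed between 0.432 and 0.243 FPKM, and no neighbours among these 5 could be told apart. In the KO-labelled library, Loxl1 stood alone in the fifth place, Loxl2, Fmod and Eln (1.24, 0.952 and 0.946 FPKM) overlapped with their neighbours, and Fbn1 (0.596 FPKM) overlapped with Lox. Lox was last in both.

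Of 13 other small leucine-rich proteoglycans, 4 were measured, all with log2 ratios above 0. Their median was 0.40, beside -0.04 over all measured rows. Of the 4, 0 were at least 2-fold higher or lower, against 5.49% and 3.22% of all measured rows. So few genes cannot be told from those shares. Over the 11 above 0 FPKM in at least 1 library the median was 0.06, with Ogn, Ecm2 and Podnl1 lower in the KO-labelled library. Among the 4 measured, Prelp and Tsku, the gene of a proteoglycan secreted by liver (38.6 against 27.5 FPKM), were highest, and Podn (1.65 against 1.60 FPKM) and Omd (4.45 against 3.32 FPKM) were lowest. Core proteins of other proteoglycan families had a median of -0.11 over 11 of 20 genes. Of the 11, 0 were at least 2-fold higher and 2 lower by as much, against 5.49% and 3.22% of all measured rows. The 2 lower genes were the heparan sulfate proteoglycan genes Gpc1 (0.466 against 3.15 FPKM) and Sdc3 (7.42 against 18.02 FPKM). With equal sums or TPM, 1 gene was at least 2-fold higher and 1 lower. Agrn, the gene of the basement membrane proteoglycan agrin (6.28 against 3.08 FPKM), and Esm1 (1.03 against 0.397 FPKM) were highest.

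Of 22 genes for enzymes that build the chondroitin and dermatan sulfate chains of decorin and biglycan, 11 were measured. By log2 ratio, with its pseudocount, 0 of them were 2-fold higher or lower, against 5.49% and 3.22% of all measured rows. Of the 11, 4 lay above 0 and 7 below, and the median was -0.09, or 0.03 over all 22 without the filter on low values. Chpf, a chondroitin polymerising factor gene, was highest (1.31 against 0.564 FPKM, a plain ratio of 2.32), with B4galt7, which adds a galactose of the linker (3.995 against 2.96 FPKM). Dse, whose product turns chondroitin into dermatan sulfate (1.22 against 1.91 FPKM), and Fam20b, a kinase gene of the linker (3.99 against 5.07 FPKM), were lowest. The medians of this list and of the other proteoglycan cores turned positive under the 3 rescalings, at 0.03, 0.14 and 0.21 and at 0.03, 0.16 and 0.22. Both stayed below the medians over all measured rows, which rose to 0.094, 0.212 and 0.283.

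All 11 listed chains of fibrillar and fibril-associated collagens, to which the proteoglycans bind, had log2 ratios above 0. The share of all rows above 0 was not computed. Of the 11, 6 were at least 2-fold higher, against 5.49% of all measured rows. Their median was 1.39, beside -0.04 over all measured rows. No chain was lost to the filter on low values, but 6 of the 11 reached 1 FPKM only in the KO-labelled library. Col1a1 and Col3a1 had the highest log2 ratios (2.91 and 2.32), and Col14a1 (9.33 against 8.73 FPKM) and Col5a3 (2.04 against 1.15 FPKM) the lowest. Relative to these chains the proteoglycans did not keep a constant proportion. Per FPKM of Col3a1 there were 7.67 FPKM of Dcn in the KO-labelled library and 32.4 in the WT-labelled library, and 1.43 and 1.24 FPKM of Lum. Per FPKM of Col1a1 there were 11.5 and 133 FPKM of Dcn and 2.13 and 5.07 FPKM of Lum. For Dcn the proportion was lower in the KO-labelled library against either chain. Lum was lower against Col1a1, but the Col3a1 ratio of 6.54 lay within the interval of Lum (6.33 to 9.05). Per 100 FPKM of Col1a1, Loxl1 was at 28.1 against 39.5 and Lox at 4.34 against 9.91. Per 100 FPKM of Col3a1, Loxl1 was at 18.8 against 9.64 and Lox at 2.90 against 2.42. The interval of Lox (3.40 to 27.0) held the ratios of both chains. That of Loxl1 (7.47 to 22.8) held the Col1a1 ratio of 17.9. Where the ratio of a chain lay within the interval, no direction is given.

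Other adhesive and matricellular genes had a median of 0.44 over 11 of 14, 8 above 0. Of the 11, 5 were at least 2-fold higher and 1 lower, against 5.49% and 3.22% of all measured rows. Nid1, which codes for a basement membrane linker, followed Spp1 (osteopontin, log2 ratio 3.54) at 12.8 against 2.34 FPKM. Ecm1, a matrix protein gene (27.1 against 62.4 FPKM), and Ctgf, a matricellular gene (2.93 against 6.05 FPKM), were lowest, and with equal sums or TPM 0 were at least 2-fold lower. Receptors bound by decorin, biglycan or lumican had a median of 0.34 over 8 of 9, 6 above 0, with 2 at least 2-fold higher and 1 lower. The same shares of all measured rows apply. Over all 9 the median was 0.12, and 2 of the 8 reached 1 FPKM only in the KO-labelled library. The 2 higher by 2-fold were Cd14, the co-receptor through which biglycan acts on TLR2 and TLR4 (8.25 against 1.35 FPKM), and Tlr2 (2.72 against 0.811 FPKM). Tlr2 reached 1 FPKM only where it was high, and Tlr4 stood at 0.471 against 0.704 FPKM. Kdr (2.06 against 7.92 FPKM) and Met (12.9 against 20.6 FPKM), receptors that decorin binds, were lowest.

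**Figure D5:**
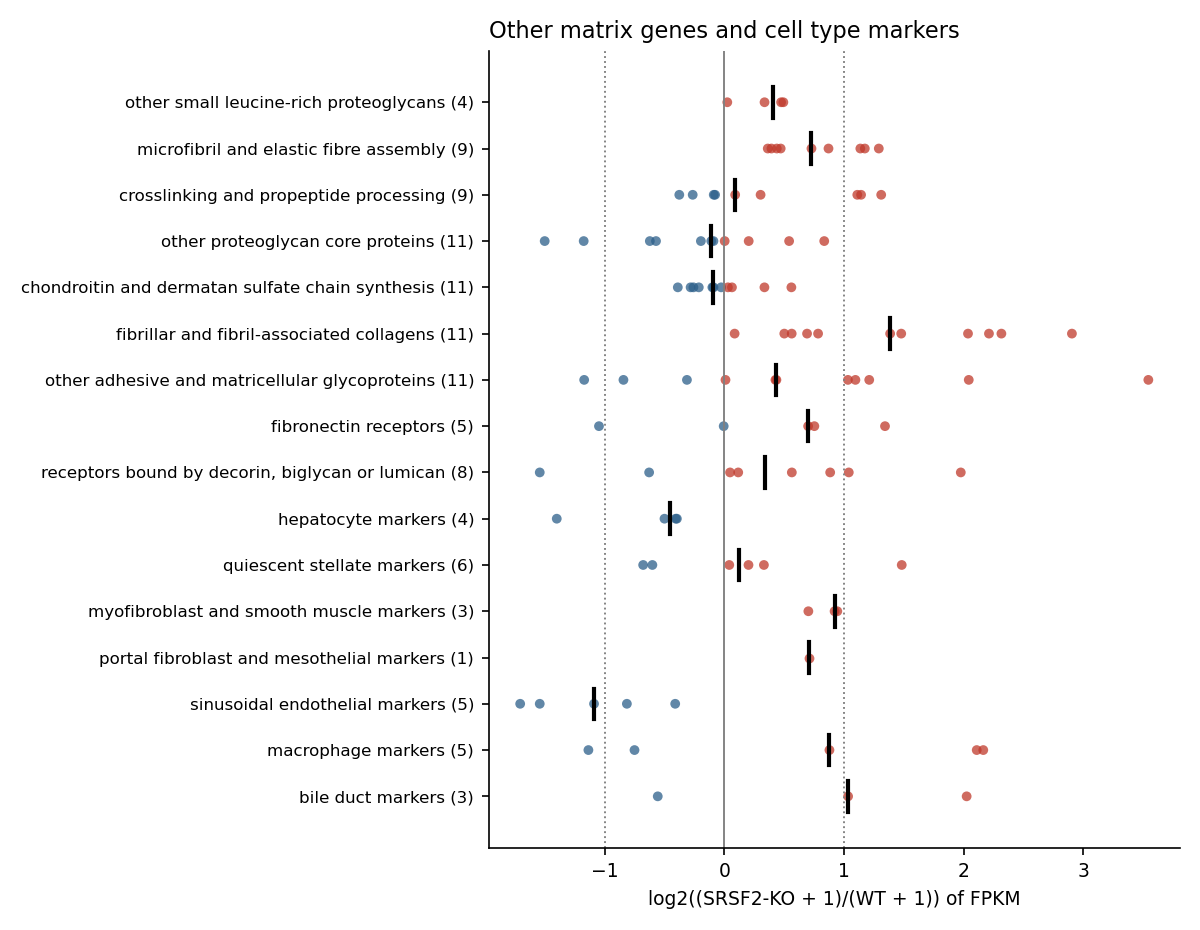
Log2 ratio of each measured gene (points, red above 0 and blue below) in lists of other matrix genes and of cell type markers, with the number measured in brackets, black bars for the list median and dotted lines at a 2-fold difference. Collagens (median 1.39) lie to the right, sinusoidal endothelial markers (median -1.09) to the left, and stellate markers on both sides of 0.

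Markers of liver cell types also differed between the libraries, and their part in the values of the 10 genes was not tested. Of 7 genes listed as quiescent stellate markers, 6 were measured, with a median of 0.12, or 0.04 over all 7. They summed to 25.9 FPKM in the KO-labelled library and 23.0 FPKM in the WT-labelled library. The list holds Pdgfrb, a receptor that rises on stellate cell activation and so does not mark quiescence alone. Pdgfrb stood at 4.32 against 0.905 FPKM and reached 1 FPKM only in the KO-labelled library. Its difference was larger than that of the sums, which include it. Rgs5 stood at 9.34 against 7.22 FPKM. The defining markers Reln (6.79 against 6.57 FPKM), Des (1.61 against 1.27 FPKM) and Lrat (1.48 against 2.76 FPKM) lay on both sides of 0, and Hgf was lowest (1.87 against 3.60 FPKM). Per FPKM of Reln, Lum was at 3.501 against 0.479, Bgn at 10.3 against 4.34 and Dcn at 18.8 against 12.6. Such proportions depend on the marker, since the KO over WT ratio was 1.03 for Reln and 4.78 for Pdgfrb. All 3 measured myofibroblast and smooth muscle markers of 5 lay above 0 (median 0.92, sums 14.6 and 6.59 FPKM), with Tagln at 6.97 against 3.14 FPKM, Acta2 at 4.05 against 1.66 FPKM and Myl9 at 3.01 against 1.46 FPKM, while the defining marker Myh11 was under 1 FPKM in both. Of 6 portal fibroblast and mesothelial markers only Thy1 (1.57 against 0.576 FPKM) reached 1 FPKM, and the sums were 2.39 and 2.14 FPKM, with the defining markers Gli1 and Msln under 1 FPKM in both. The median over all 6 was -0.10. Fewer cells of a type and less RNA per cell cannot be told apart in such bulk libraries.

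The other marker lists lay on different sides of 0. All 5 sinusoidal endothelial markers lay below 0 (median -1.09, sums 31.5 and 74.7 FPKM), from Oit3 and Kdr, the lowest, over the defining marker Clec4g (21.1 against 46.0 FPKM) to Stab2 and Lyve1 (log2 ratios -0.81 and -0.41). The 5 macrophage markers, all measured, split around a median of 0.88, while their sum was lower in the KO-labelled library (45.9 and 54.9 FPKM). Trem2 (5.22 against 0.387 FPKM) and Gpnmb (3.38 against 0.0139 FPKM) were highest and reached 1 FPKM only in the KO-labelled library. Clec4f and Emr1 were lowest, and Cd68 stood at 16.8 against 8.67 FPKM. Of 5 bile duct markers 3 were measured (median 1.03, sums 13.2 and 4.57 FPKM), led by Cldn7 and Sox9, while Krt19 was at 0.426 against 1.098 FPKM and the defining markers Krt7 and Epcam were under 1 FPKM in both. The median over all 5 was 0.24. All 4 measured hepatocyte markers lay below 0 (median -0.45, sums 10950 and 17109 FPKM), with Cyp2e1 (-1.40) and Cps1 (-0.50) lowest and Hnf4a (-0.41) and Apoa1 (-0.40) highest. The fifth, Alb, the gene of a main hepatocyte product, was listed at 0 in both libraries, so no level is given for it.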

How the data were processed

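Liver RNA was extracted with Trizol and sequenced on an Illumina HiSeq2000, per the labels. Per the submitters' processing notes, Bowtie 0.12.2 was used and mm9 was the build. Each row of the table holds the FPKM that the authors deposited, 1 per library. How FPKM were estimated, with which annotation and with or without strand, is not given in the sources used here. Antisense exons overlap Fbn1, Eln, Lox, Loxl2 and Fn1 in GENCODE M21, and reads from both strands may be joined in those values.

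Columns were assigned to libraries by name. The log2 ratio is log2((KO + 1)/(WT + 1)), and list members count as measured at 1 FPKM or more in at least 1 library. The FPKM sums differ, so 3 rescalings were run, among 10 alternatives. Depth was fitted from whole-read steps of low values in 2523 protein-coding genes for which GENCODE M21 has only 1 transcript, 1000 to 8000 bases long. Of values worth 1 to 3 reads, 73.3% (KO) and 80.1% (WT) came within 0.1 reads of a whole number. Reads of a gene follow from its longest protein-coding transcript, less 140 bases, and give exact 95% intervals for ratios. Scripts were tested on simulated data.

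The members and the 16 lists (165 symbols, all in the table, 3 under an older name) were chosen with earlier results of these data known. Named genes of a list are its 2 highest and 2 lowest measured ones, with defining markers (the first 3) for cell types, and other genes where they bear on a member, named after their values were seen. Python 3.11.15, pandas 2.3.3 and scipy 1.17.1 were used.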

Additional observations from a re-analysis of the deposited data

How the results depend on the processing

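No paired analysis was possible because there was 1 library per genotype, and for the same reason none could be left out. Among members that reached 1 FPKM in either library, 3 were higher by 2-fold or more and 0 lower, and the median log2 ratio over those 6 genes was 0.99; since Loxl1 and Loxl2 reached 1 FPKM only where they were high, this median supports nothing about the group. The count of higher members was 5 with TPM and 8 without a pseudocount, the latter chosen after seeing the data, and stayed between 2 and 4 under the other 8 alternatives. The count of lower members was 0 under all 10. The median was 1.40 with a pseudocount of 0.1, 0.76 with one of 3, 0.63 with no filter, 0.78 with a median ratio of 1 over rows with at least 5 FPKM in both, and 1.51 without a pseudocount; a pseudocount of 3 hides more of the ratio of low genes, and looser filters or larger values admit more genes under 1 FPKM. Single genes were recomputed under 6 alternatives each: 34 of 60 values lay within the counting interval, 26 outside it, and 0 changed sign. Summing the rows of a repeated symbol, 1 of the 6, changed no value, since each member had 1 row. A pseudocount cannot turn a sign and the 3 rescalings only raised KO, so only Fn1 could have turned. Depth limits Lox most, with an estimated 5 reads in the WT-labelled library.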
